A study of Mus musculus with 80 samples.

Results

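*Gpr183* is 1 gene of the 21825 gene symbols in the bulk tables of this series, and it was followed here through 24 bulk RNA-seq libraries and 4 single-cell RNA-seq (scRNA-seq) libraries of mouse hematopoietic stem cells (HSCs) and their progeny. It was chosen because its level was near 0 in young HSCs, high in old HSCs and near 0 again on day 4 after transplantation. Those differences are therefore given as a description, with no test, and tests of *Gpr183* are kept for contrasts between CD150 levels.

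All donors were male C57BL/6 mice, 2 to 3 months old for young and 22 to 24 months old for old HSCs. Fresh HSCs were sorted from bone marrow, after bead depletion of lineage-positive cells, as cells with Sca-1, c-Kit and CD150 but without CD34, CD48 and lineage antigens. There were 3 bulk libraries for each of 8 groups, namely young HSCs, old HSCs, old HSCs split into 4 groups of equal size by CD150 level (G1 the lowest, G4 the highest, from the same 3 mice), and old HSCs of low or of high CD150 level that were collected from recipients 4 days after transfer. Single-cell libraries, 1 each, were made of young HSCs, of old HSCs, and of donor-derived (CD45.2) Lin-Sca-1+c-Kit+ progenitors 14 days after transplantation of CD150-low or CD150-high old HSCs. Both transplanted arms carry the same added treatment, since old cells went into lethally irradiated CD45.1 male recipients together with Sca-1-depleted helper cells, and no library of transplanted young cells was used here. The paper calls the recipients for the day 14 libraries young and gives no age for those of day 4. Transfer and the change of host cannot be told apart in this design. The labels tie the G1 to G4 libraries to numbered mice but say nothing of the source of replicates in the other groups, so p-values there measure the spread between samples, which may be technical.

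GPR183, also called EBI2, is a receptor coupled to inhibitory (Gi) G proteins that senses oxysterols, which are oxidised forms of cholesterol. Its main ligand is a dihydroxycholesterol made from cholesterol by the enzymes CH25H and CYP7B1 and removed by HSD3B7, so that gradients of the ligand arise where makers and removers sit apart. The receptor is best known for placing B cells, T cells and dendritic cells within lymphoid tissue.

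The gene lies on the minus strand of chromosome 14 (GRCm38, chr14:121952551-121965195) and has 2 annotated transcripts, of 2 and 3 exons, with the whole coding sequence in 1 exon at chr14:121954037-121955107. All of it sits within an intron of *Ubac2*, a gene on the plus strand at chr14:121878620-122021034, in 4 *Ubac2* transcripts, and no exon of *Gpr183* overlaps an exon of *Ubac2*. The authors' read counting did not use strand, and the strand setting behind the FPKM values is not given in the sources used here, so unspliced *Ubac2* reads from that intron may be counted as *Gpr183* reads. In young and day 4 cells, where *Ubac2* had group means of 28.4 to 41.3 FPKM (a level in which fragments are divided by gene length and by the size of the library), *Gpr183* had means of 0.64 FPKM or less. The 250 bases upstream of the start that RefSeq gives (GRCm38.p6, chr14:121965194-121965443, minus strand) are shown because they are the proximal control region of a gene whose level differs so widely between groups. Capitals mark the CpG sites, where DNA methylation can occur.

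Gpr183 upstream region: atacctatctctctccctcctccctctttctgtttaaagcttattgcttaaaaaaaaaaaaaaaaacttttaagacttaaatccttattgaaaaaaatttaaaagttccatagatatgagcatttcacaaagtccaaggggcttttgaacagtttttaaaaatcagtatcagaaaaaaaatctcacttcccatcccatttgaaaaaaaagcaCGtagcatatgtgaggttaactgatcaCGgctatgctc

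The GC content of this window was 32.0%, against a median of 52.4% over 32851 RefSeq mouse promoter windows, and 2.38% of windows had less. It held 2 CpG sites, against a median of 6, and 29.0% of windows had as few. The window was searched on both strands for 10 motifs and held no match to any of them. Among general promoter motifs, GGGCGG is in 32.7% of windows and TATAAA in 12.4%. Among motifs of hematopoietic factors, TGTGGT, bound by RUNX proteins, is in 14.05% of windows, CAGGAA, bound by ETS proteins, in 25.7%, and AGATAA, bound by GATA proteins, in 9.99%. AGGTCA, which nuclear receptors bind, is in 14.02% of windows, TGANTCA, bound by AP-1, in 6.75%, CACGTG, bound by MYC, in 6.02%, TTCNNNGAA, bound by STAT proteins, in 7.02% and GTAAACA, bound by FOXO proteins, in 3.17%.

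Young HSCs had *Gpr183* at 0.656, 0.145 and 1.12 FPKM, a mean of 0.64 ± 0.487 (SD, n = 3). Old HSCs had 51.7, 42.7 and 39.2 FPKM, a mean of 44.5 ± 6.43 (SD, n = 3). No old library came near a young one, and the mean was 69.6-fold that of young HSCs. On the log2(FPKM + 1) scale, which understates the change of low genes, the difference was 4.83 (standard error 0.26, 95% interval 4.26 to 5.40). *Gpr183* ranked 3 by this difference among the 217 genes that limma called higher in old HSCs at an adjusted p under 0.05 and a fold change above 2 (1.92% of the 11279 genes tested). As the gene was chosen for this difference, its interval, its rank and its place among the called genes are descriptions and not evidence. In bulk samples, fewer cells of a type and less RNA per cell cannot be told apart.

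Other gene lists moved with age as well, and their part in the *Gpr183* difference was not tested. Of 41 S phase genes 17 were lower in old HSCs, and of 52 G2M genes 29 (1.73% of all genes were called lower). The dendritic cell list had summed levels of 505 to 798 FPKM in young and 891 to 1470 FPKM in old HSCs, which did not overlap, with 1 of 6 genes tested called higher (*H2-Eb1*, 1.19, limma adjusted p = 0.0124, beside 1.92% of all genes called higher), and its defining markers were at 3.26 FPKM or less. The megakaryocyte list had 579 to 754 FPKM in young and 334 to 368 FPKM in old HSCs, with 2 of 7 called lower, the platelet genes *Pf4* (-1.99) and *Ppbp* (-1.36). Of the macrophage list, 3 of 7 were lower in old HSCs, and its summed levels overlapped (654 to 667 and 599 to 670 FPKM). Its 7 genes had a mean of at least 1 FPKM in young HSCs, but only 4 had one in old HSCs. The rest were thus tested only through the group where they were higher.

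**Figure D1:**
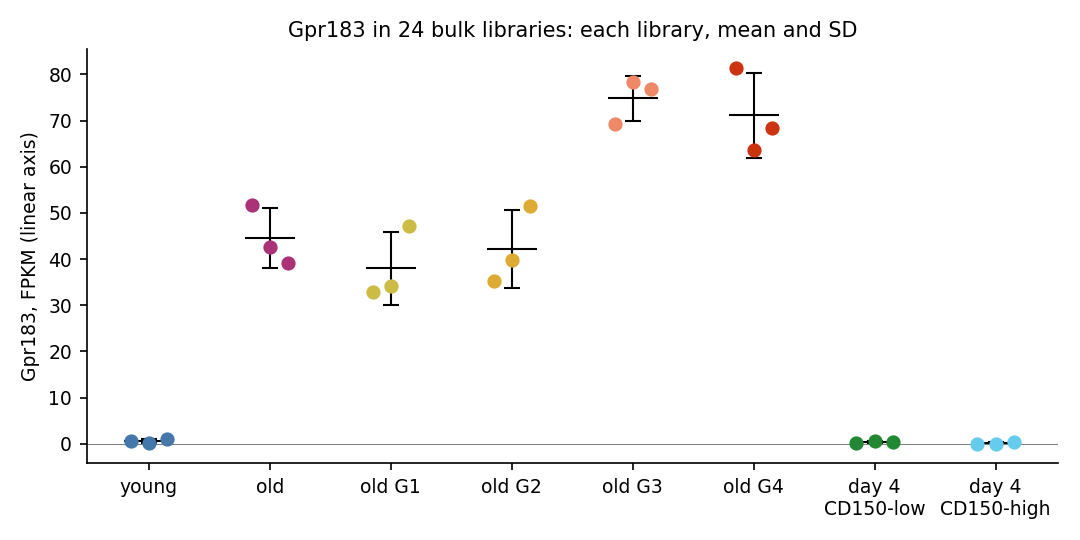
*Gpr183* level (FPKM, linear axis) in each of the 24 bulk libraries, grouped by age, CD150 group and day after transplantation, with points for libraries and black bars for the mean and SD (n = 3). Old groups lie between 32.8 and 81.4 FPKM, while the young and day 4 libraries lie at or below 1.12 FPKM.

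Among the CD150 groups of old HSCs, *Gpr183* had 32.8, 34.2 and 47.1 FPKM in G1 (mean 38.0 ± 7.9, SD, n = 3) and 35.3, 39.7 and 51.5 FPKM in G2 (42.2 ± 8.41). G3 had 69.2, 78.4 and 76.8 FPKM (74.8 ± 4.91), and G4 81.4, 63.6 and 68.3 FPKM (71.1 ± 9.21). The libraries of G1 and G2 overlapped, those of G3 and G4 overlapped, and every G3 and G4 library lay above every G1 and G2 library. G1, the lowest in CD150, was thus still 59.5-fold above young HSCs in its mean level, and the step between CD150 groups was far smaller, with G4 at 1.87-fold and G3 at 1.77-fold the mean of G1 and G2, respectively.

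The linear term over G1 to G4 rose by 0.35 log2 units a group (standard error 0.0602, 95% interval 0.22 to 0.48, limma adjusted p = 0.0307), and 33 of 11673 genes (0.283%) were called in this test, 25 higher (0.214%) and 8 lower (0.0685%). With the labels permuted within each mouse, an exact two-sided permutation test of *Gpr183* alone gave p = 0.00347, where 0.00014 is the smallest p its 13824 arrangements allow. G4 was higher than G1 in 3 of 3 mice, by 1.28, 0.878 and 0.527 on the log2 scale. The call was fragile, since the adjusted p was 0.0512 after rescaling the libraries by median-of-ratios size factors, 0.102 with no filter on low values, and between 0.00625 and 0.183 when single libraries were left out. It held in 4 of 12 such fits, those without G1 replicate 3 or any 1 of the G2 libraries, and was lost without any other single library, while the slope kept between 0.32 and 0.40.

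G4 against G1 alone gave a log2 difference of 0.90 (95% interval 0.49 to 1.31), which was not called (limma adjusted p = 0.129), with 15 of 11673 genes called (0.129%), 13 higher (0.111%) and 2 lower (0.0171%). Without G1 replicate 3, the highest G1 library, it was 1.06 with an adjusted p of 0.0264. That library had an FPKM sum of 698602.8, against 567732.5 and 578598.6 in the other G1 libraries. Of the steps between neighbouring CD150 groups, compared after the values were seen, G2 to G3 had a difference of 0.83 (95% interval 0.42 to 1.24, limma adjusted p = 1.0), against 0.15 (-0.26 to 0.56, adjusted p = 0.999) from G1 to G2 and -0.08 (-0.49 to 0.33, adjusted p = 1.0) from G3 to G4. No gene was called in any of these 3 steps.

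*Slamf1*, which encodes CD150 itself, had 29.4, 29.2 and 15.2 FPKM in G1 and 102, 79.3 and 89.0 FPKM in G4, and it rose by 0.61 a group on the log2 scale (adjusted p = 0.00307, limma). *Sbspon*, a secreted matrix protein gene raised in old HSCs, had 5.77, 14.1 and 7.92 FPKM in G1 and 92.5, 80.5 and 76.8 in G4, a rise of 1.04 a group (adjusted p = 8.8e-05, limma). *Gpr183* had a smaller slope than either gene, a difference that was not tested, and most of its own change lay between G2 and G3. *Ubac2*, the gene around it, had means of 41.8, 45.9, 51.4 and 57.9 FPKM over G1 to G4, against 28.4 in young and 33.4 in old HSCs. Its mean thus differed less between ages than between CD150 groups, unlike that of *Gpr183*. Of its neighbours with a row in the tables, *Gpr18* had group means between 0.219 and 2.52 FPKM and *Timm8a2* at most 0.245 FPKM.

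**Figure D2:**
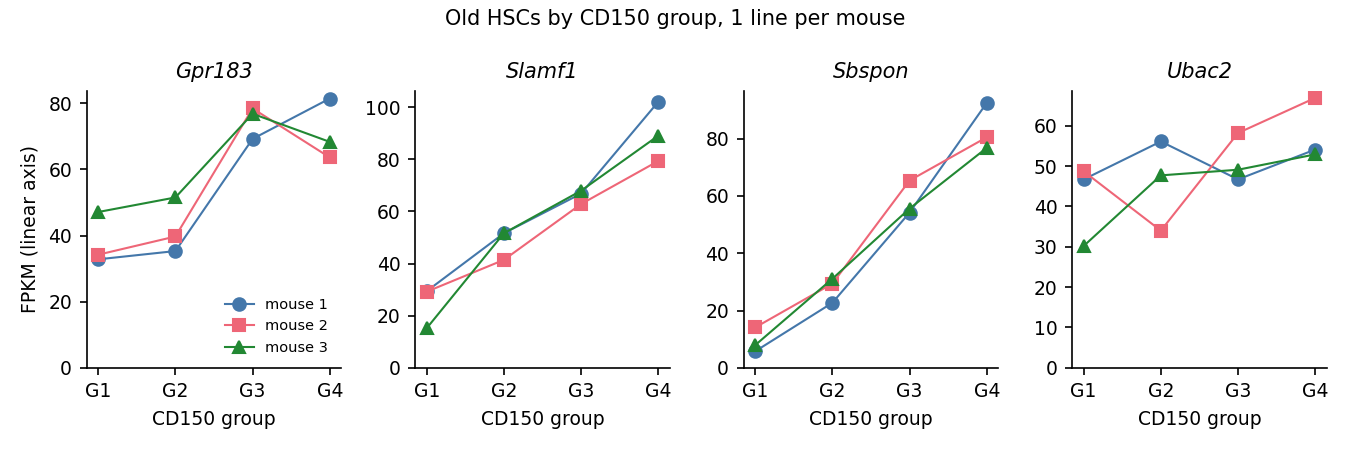
FPKM (linear axes starting at 0) of *Gpr183*, *Slamf1*, *Sbspon* and *Ubac2* in the CD150 groups G1 to G4 of old HSCs, with 1 line for each of 3 mice. *Gpr183* is higher in G3 than in G2 in 3 of 3 mice, while *Slamf1* and *Sbspon* are lowest in G1 and highest in G4 by mean.

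On day 4 after transplantation, *Gpr183* had 0.239, 0.55 and 0.444 FPKM in CD150-low HSCs (mean 0.411 ± 0.158, SD, n = 3). In CD150-high HSCs it was listed at 0 and at 1.93e-56, in effect 0, in 2 libraries and at 0.44 FPKM in the last, a mean of 0.147 ± 0.254 (SD, n = 3). Both day 4 groups overlapped each other, CD150-low overlapped young HSCs, and no day 4 library came near any fresh old library. Set against the fresh group at the same end of CD150, the log2(FPKM + 1) differences were -4.78 (95% interval -5.44 to -4.11) for CD150-low cells against G1 and -5.99 (-6.56 to -5.41) for CD150-high cells against G4. These intervals too describe values by which the gene was chosen. In order of mean, day 4 CD150-high, day 4 CD150-low and young HSCs formed the low end, where neighbours overlapped. G1, G2 and old HSCs, which also overlapped, came next, and G4 and G3 lay above all old libraries.

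For the day 4 groups against each other, *Gpr183* had a log2(FPKM + 1) difference of -0.32 for CD150-high minus CD150-low. The gene was chosen for values near 0 on day 4, which leaves little room for a difference. Tests of this contrast are thus not independent of the choice. *Gpr183* did not pass the filter of a mean of at least 1 FPKM, so an exact two-sided permutation test of 3 against 3 libraries was used, which gave p = 0.2, where 0.1 is the smallest it can give. Without the filter, limma gave a 95% interval of -0.78 to 0.15 (adjusted p = 0.821). Of 11077 genes tested, 0 (0%) were called by limma between the day 4 groups and 826 had an unadjusted p under 0.05. At these levels a difference between CD150-low and CD150-high cells on day 4 was not detectable.

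The drop ran alongside many other differences between transplanted and fresh cells. Limma called 1994 of 11584 genes (17.2%) between day 4 CD150-low HSCs and G1, 677 higher and 1317 lower, and 2739 of 11528 (23.8%) between day 4 CD150-high HSCs and G4, 915 higher and 1824 lower. The median of all genes was shifted by -0.17 and -0.21 on the log2 scale, and rescaling by median-of-ratios size factors, which brought it to -0.02 and -0.04, changed the splits to 976 higher and 996 lower, and to 1217 higher and 1372 lower. The difference in *Gpr183* was -4.64 and -5.85 after rescaling. Among the genes that limma called higher in old HSCs and that had at least 5 FPKM in that fresh group, the median share of the fresh level kept on day 4 was 27.3% (146 genes) in CD150-low and 23.0% (172 genes) in CD150-high cells.

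Many of the other HSC aging marker genes that the study names fell on day 4 too. This list of 13 genes holds markers known from earlier work, was shown by the study on these samples and was drawn up with results of these samples known, so that its 13 of 13 calls higher in old HSCs (1.92% of all genes) are not independent evidence of its direction (412 genes were called with age, 3.65%, and 195 of them lower, 1.73%). Against G1, 8 of 13 fell in day 4 CD150-low cells (11.4% of all genes tested were called lower), with a list median of -1.98 on the log2 scale. Those were *Sbspon* (-2.87), *Cavin2* (-2.79), *Clu* (-2.75), *Enpp5* (-2.42), *Alcam* (-2.32), *Nupr1* (-2.24), *Ehd3* (-1.98) and *Jam2* (-1.89). Against G4, 11 of 13 fell in CD150-high cells (15.8% of all genes were called lower), with a list median of -2.19 and *Sbspon* (-4.67) farthest. *Mt1*, a metallothionein, and *Vwf*, von Willebrand factor, were not called in either arm, nor were *Selp*, *Slamf1* and *Ramp2* in the CD150-low arm.

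**Figure D3:**
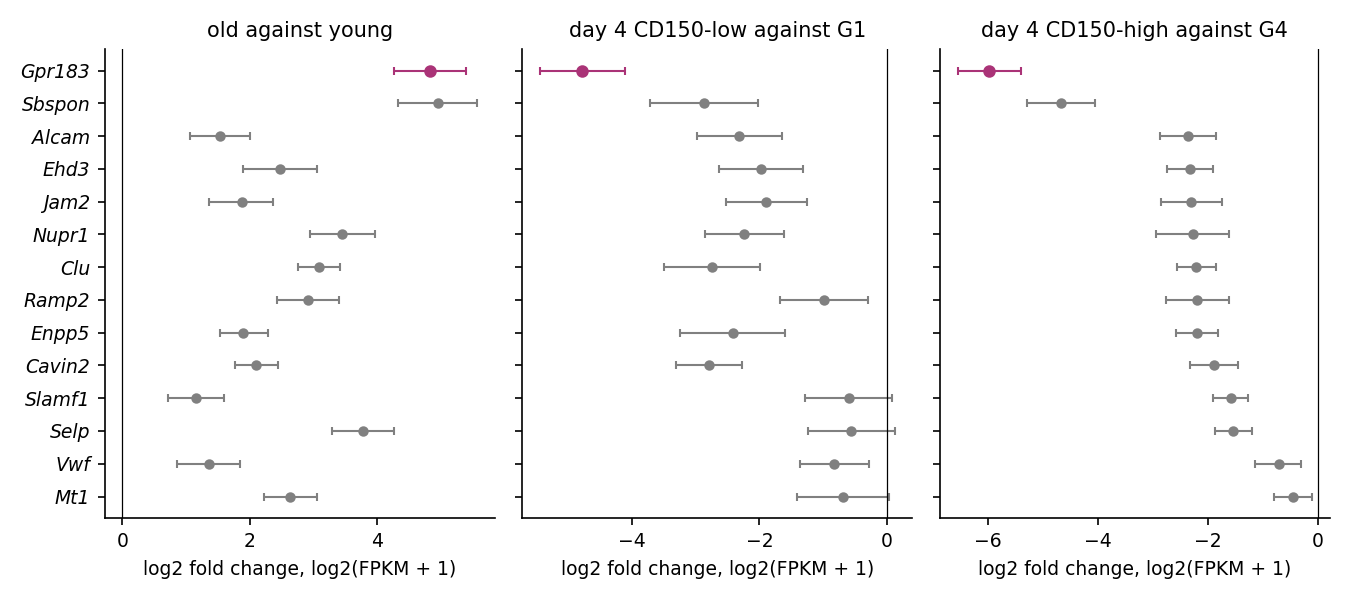
Log2 fold change on the log2(FPKM + 1) scale, with 95% intervals from limma (n = 3 libraries a group), of *Gpr183* (purple) and the 13 aging marker genes named by the study (grey) for old against young HSCs and for day 4 cells against the fresh group at the same end of CD150. The *Gpr183* differences are 4.83, -4.78 and -5.99, and those of *Sbspon* on day 4 are -2.87 and -4.67.

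Cell cycle genes and markers of other cell types moved with the day 4 groups, and their part in the level of *Gpr183* was not tested. Of 41 S phase genes tested, 30 rose in CD150-low and 35 in CD150-high cells, and of 52 G2M genes, 35 and 41 rose (5.84% and 7.94% of all genes were called higher). Of 12 HSC marker genes, 8 and 9 fell (11.4% and 15.8% of all genes were called lower), and 6 and 8 after median-of-ratios rescaling. *Cd48*, absent from the surface of sorted HSCs and present on progenitors, rose by 5.91 and 4.20 on the log2 scale (adjusted p = 0.000105 and 3.86e-06, limma). Macrophage markers rose, 6 and 9 of 13 tested, led by the complement genes *C1qb*, *C1qa* and *C1qc*. Only 3 genes of this list had a mean of at least 1 FPKM in G1 and 4 in G4, against 13 and 12 on day 4. Most were thus tested only through the day 4 groups, where they were high, and had little room to fall. The list's summed level ranged from 427 to 921 FPKM in CD150-low and 562 to 759 FPKM in CD150-high cells against 470 to 576 FPKM in G1 and G4, and its highest defining marker reached 107 FPKM on day 4 against 2.02 FPKM in G1 and G4. *Gpr183*, which macrophages can express, was at 0.55 FPKM or less in these same libraries. Of the dendritic cell list, 5 of 6 genes tested fell in each arm (11.4% and 15.8% of all genes), led by the antigen presentation genes *Cd74*, *H2-Aa* and *H2-Eb1*. Of this list, 6 genes had a mean of at least 1 FPKM in G1 and in G4, and 4 in each day 4 group, so some were tested only through the fresh groups. Its summed level was 1420 to 2050 FPKM in G1 and 146 to 181 FPKM in day 4 CD150-low cells, and 1590 to 1850 FPKM in G4 and 239 to 334 FPKM in day 4 CD150-high cells, while its defining markers stayed at or below 4.35 FPKM in all groups. The defining T cell markers were at 0 in all groups, and those of B cells at or below 0.642 FPKM.

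Of the 8 enzymes that make or break down oxysterols, none was called between old and young HSCs or over the CD150 groups, with 4 and 5 of them tested. Of all genes, 3.65% were called with age and 0.283% over G1 to G4, so with so few tested the lack of calls says little of these enzymes. *Ch25h*, which makes the first step of the ligand, had at most 0.606 FPKM and was listed at 0 in all libraries of G2, G3, G4 and day 4. *Cyp7b1*, the enzyme of the next step, had 7.04 ± 1.52 FPKM in young, 7.42 ± 0.596 in old, 7.59 ± 1.61 in G1 and 8.93 ± 2.32 in G4 HSCs (SD, n = 3). On day 4 it had 3.78, 3.17 and 3.68 FPKM in CD150-low and 12.1, 10.4 and 8.08 FPKM in CD150-high cells. Limma called that difference of 1.29 on the log2 scale in neither direction (adjusted p = 0.328), and it called 0 of the 11077 genes tested between these groups. *Hsd3b7*, which removes the ligand, had between 42.8 and 122 FPKM in all fresh old libraries, with young and old means of 88.4 and 96.8 FPKM and an interval of the difference of -0.16 to 0.39 on the log2 scale. In scRNA-seq data the same gene had 1.23 and 1.14 CPM in young and old HSCs.

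Of the other enzymes, *Cyp27a1* fell in day 4 CD150-high cells against G4 (-1.59, adjusted p = 0.0201, limma) in 3 of 6 fits with a library left out, and *Cyp39a1* in CD150-low cells against G1 (-1.54, adjusted p = 0.0147) in 4 of 6. *Cyp11a1* was called in no comparison in which it passed the filter, and *Cyp46a1* and *Cyp7a1* passed it in none. In a list of 18 other oxysterol-binding proteins, 2 of 16 tested rose with age (1.92% of all genes were called higher), among them *Nr1h3*, encoding a liver X receptor (1.37 on the log2 scale, adjusted p = 0.0137, limma). *Nr1h3* lost its call in 1 of 6 fits with a library left out. On day 4, 4 and 5 of 16 tested fell (11.4% and 15.8% of all genes were called lower in these comparisons), among them *Insig1* and *Rora*, and none rose. Of 8 liver X receptor target genes tested, 2 fell in each day 4 arm, *Apoe* and *Smpdl3a*, each of them uncalled in 1 arm after rescaling, and none was called between the ages (3.65% of all genes were). Of 23 cholesterol synthesis genes, none was called between the ages (3.65% of all genes were), while 2 and 5 fell on day 4, shares close to those among all genes. The list medians on day 4, for CD150-low against G1 and CD150-high against G4, were -0.53 and -0.69 for the oxysterol-binding proteins, -0.51 and -0.72 for the liver X receptor targets and -0.40 and -0.24 for cholesterol synthesis, beside -0.17 and -0.21 for all genes.

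Downstream of the receptor, *Gnai2*, the main inhibitory G protein subunit of blood cells, had group means between 107 and 178 FPKM, and of 24 Gi signalling genes tested 1 was called between the ages, *Rgs2*, a regulator of G protein signalling (-2.21, adjusted p = 0.0317), a share near the 3.65% called among all genes. On day 4, 3 fell in CD150-low cells (11.4% of all genes), led by *Gng11* (-1.81) and *Rgs1* (-1.69), and 4 fell (15.8%) and 3 rose (7.94%) in CD150-high cells. In both arms the share that fell was near that among all genes, so these falls are not particular to the list. Among 32 other chemoattractant receptors, *Cxcr4*, which holds HSCs in the marrow, had group means between 6.42 and 12.4 FPKM and was called in no comparison. *Ptger4*, a prostaglandin receptor, was the 1 receptor of 14 tested that rose with age (1.10, limma adjusted p = 0.0163, in 2 of 6 fits with a library left out). Of all genes, 1.92% were called higher with age. On day 4, 4 of 17 fell in CD150-low cells (11.4% of all genes), among them *S1pr1* (-2.18) and *Gpr171* (-2.18). In CD150-high cells 6 of 16 fell (15.8% of all genes), led by *Ptger4* (-3.11) and *S1pr1* (-2.86), and 2 rose (7.94% of all genes), *Fpr1* and *Ccr9*, both named after their values were seen. The *Fpr1* call held in 1 of 6 fits with a library left out and the *Ccr9* call in 6 of 6.

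Across the 24 bulk libraries, the genes whose log2(FPKM + 1) was most like that of *Gpr183* by Pearson r, out of 9381 genes with a group mean of at least 5 FPKM, were *Prtn3* (r = 0.977), *Clca3a1* (0.971), *Ntf3* (0.962), *Gadd45g* (0.961), *Cldn5* (0.96), *Zg16* (0.954), *Il1rapl2* (0.95), *Klrb1c* (0.945), *Kdf1* (0.943) and *Ctsw* (0.941). The libraries fall into a high and a low cluster, so these values describe which genes share that split and carry no p. *Prtn3*, a protease of myeloid granules, had means of 187 FPKM in young, 604 in old and 173 and 130 on day 4, a split of the same kind at far higher levels. *Ntf3*, a neurotrophin, had 0.006 FPKM in young, 4.70 in old and 0.00842 and 0 on day 4, and *Cldn5*, a tight junction gene, 3.46, 39.5, 2.17 and 1.07 FPKM. Of the aging markers, *Alcam* (0.935), *Cavin2* (0.932) and *Sbspon* (0.926) were closest, and *Slamf1* had 0.748. The lowest values were those of *Dscc1* (-0.955), *Slbp* (-0.953), *Jpt1* (-0.942), *Cenps* (-0.938) and *Apex1* (-0.933), of which *Dscc1* and *Slbp* act in DNA and histone synthesis.

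The scRNA-seq libraries held the sorted cell types by their markers. *Procr* had a UMI (a unique molecular identifier, counting 1 RNA molecule) in 69.9% of young and 88.9% of old HSCs and *Cd48* in 1.54% and 0.181%, while in the day 14 progenitors *Cd48* had one in 76.5% and 59.3%. After the study's filters 1104, 2758, 2406 and 1933 cells were kept in the order young, old, day 14 CD150-low and day 14 CD150-high, with medians of 14501.5, 13357.5, 19435.5 and 30651 UMIs per cell. Between libraries, at most 3 cell barcodes were shared by any pair. Each group is 1 library, so nothing was tested between them, and intervals cover counting error only.

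Young HSCs had 34 *Gpr183* UMIs in 18 of 1104 cells (1.63%, exact 95% binomial interval 0.969 to 2.56), or 1.98 CPM (UMIs of the gene scaled to the UMI total of the library, exact 95% Poisson interval 1.37 to 2.77). Old HSCs had 2516 UMIs in 1057 of 2758 cells (38.3%, 36.5 to 40.2), or 65.0 CPM (62.5 to 67.6). The day 14 progenitors had 48 UMIs in 26 cells after CD150-low transplantation (1.08% of cells, 0.948 CPM, 0.699 to 1.26) and 30 UMIs in 21 cells after CD150-high transplantation (1.09%, 0.468 CPM, 0.316 to 0.668). *Gpr183* was thus still low in the day 14 progenitors, which are mostly other cell types than the day 4 cells, and both day 14 levels lay below that of young HSCs. With each cell thinned to 8975 UMIs, the shares were 1.07%, 31.1%, 0.6% and 0.418% and the levels 1.84 (1.07 to 2.95), 70.3, 0.875 (0.51 to 1.40) and 0.64 CPM (0.319 to 1.15), where the day 14 and young intervals overlapped, in 1029, 2546, 2165 and 1916 cells, the shallower ones being left out.

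**Figure D4:**
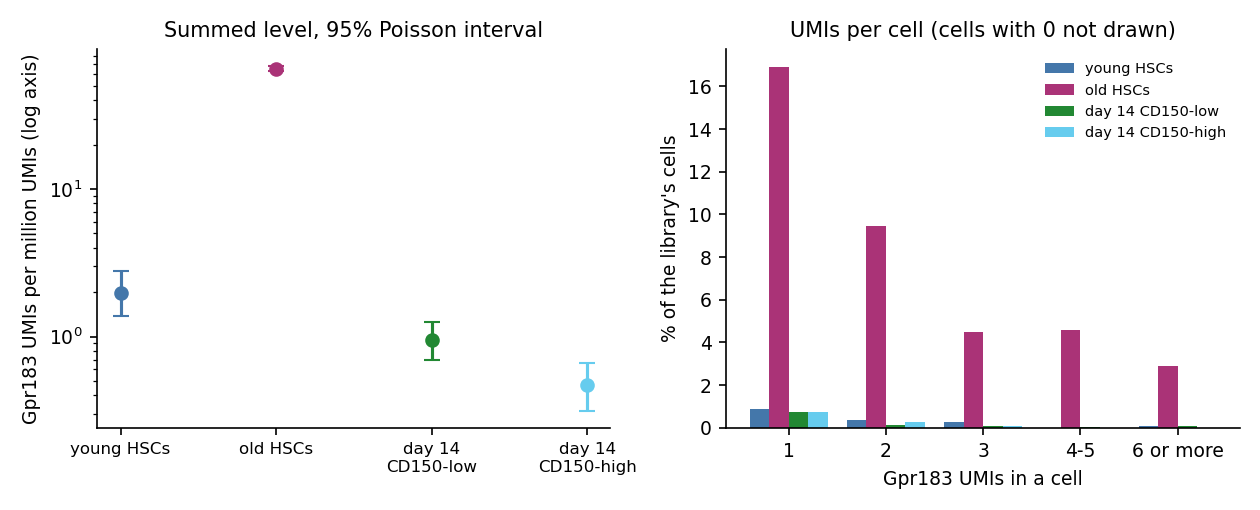
Left, *Gpr183* level (CPM, log axis) in each scRNA-seq library with exact 95% Poisson intervals. Right, percentage of each library's cells with 1, 2, 3, 4 to 5 and 6 or more *Gpr183* UMIs, where old HSCs have cells in all classes and the other libraries stay under 1% in each.

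Within the old library *Gpr183* was unevenly spread. It had a UMI in 38.3% of cells, where 58.2% would have one if the gene made up the same share of RNA in each cell, and 330 cells had 3 UMIs or more, up to 15. The 276 cells richest in it, of 2758, held 54.3% of its UMIs. Aging markers of about the same level differed in this. *Ramp2*, at 67.05 CPM, had a UMI in 31.2% of cells where 59.3% would have one at an even level, and *Clu*, at 71.5 CPM, in 46.8% against 61.6%. *Enpp5*, at 75.8 CPM, was nearly even, with 61.4% against 63.6%.

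Old cells rich in the other aging markers had more *Gpr183*. The study listed *Gpr183*, *Ramp2*, *Ehd3* and *Jam2* among candidate markers, chosen partly by correlation with a score of aging genes over single cells. The rise given here is therefore not independent of that choice. In 5 bins of old cells by the summed thinned UMIs of 12 aging markers (all 13 but *Slamf1*), *Gpr183* had 27.8, 60.2, 66.8, 84.3 and 113 CPM from the lowest to the highest bin, and a UMI in 15.5% of cells of the lowest and 45.4% of the highest. The Poisson interval was 23.1 to 33.0 in the lowest bin and 103 to 123 in the highest. Such intervals treat UMIs as independent, so they are too narrow for a gene spread unevenly over cells. No difference between groups of cells was tested. Even the lowest bin lay above the 1.84 CPM of young HSCs. By *Slamf1* UMIs, *Gpr183* had 68.6 CPM (64.7 to 72.6) in 1902 cells without one, 71.0 (63.4 to 79.2) in 499 cells with 1 and 97.8 (80.2 to 118) in 123 cells with 2. In the 22 cells with 3 or more it was 50.7 CPM (24.3 to 93.1), resting on 10 *Gpr183* UMIs. The shares of cells with a *Gpr183* UMI were 30.2%, 31.9%, 41.5% and 36.4% in the same order. The 40 old cells with a UMI of *Flt3*, a receptor of early progenitors, had 33.4 CPM (17.3 to 58.4), and the 2506 without it 70.9 CPM (67.5 to 74.5).

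Proliferating old cells had little *Gpr183* after thinning. The 88 thinned old cells with a UMI of *Mki67*, which marks cycling cells, had 3 *Gpr183* UMIs (3.80 CPM, 0.783 to 11.1), and the 2458 cells without one had 72.7 CPM (69.2 to 76.4). At full depth 12 of the 1057 old cells with *Gpr183* also had *Mki67*, against 4.42% of all old cells. In 5 bins of summed S and G2M gene UMIs *Gpr183* had 95.04, 82.5, 70.7, 71.4 and 32.0 CPM, from the lowest to the highest. Depth moved with this, since *Mki67* cells had a median of 23354.5 UMIs against 13563, and *Gpr183* had 84.8 CPM in the shallowest and 40.5 CPM in the deepest bin of cells. Within the deepest bin the 70 *Mki67* cells had 4.78 CPM (0.985 to 13.96) and the 439 others 46.2 CPM (39.7 to 53.4), a difference that was not tested. In the sorted HSC libraries no cell type known to lack *Gpr183* was present to show the level of free RNA, so its part in these shares was not tested. In young HSCs, the 87 *Mki67* cells had 2.56 CPM and the 942 others 1.77 CPM, and their intervals overlapped.

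**Figure D5:**
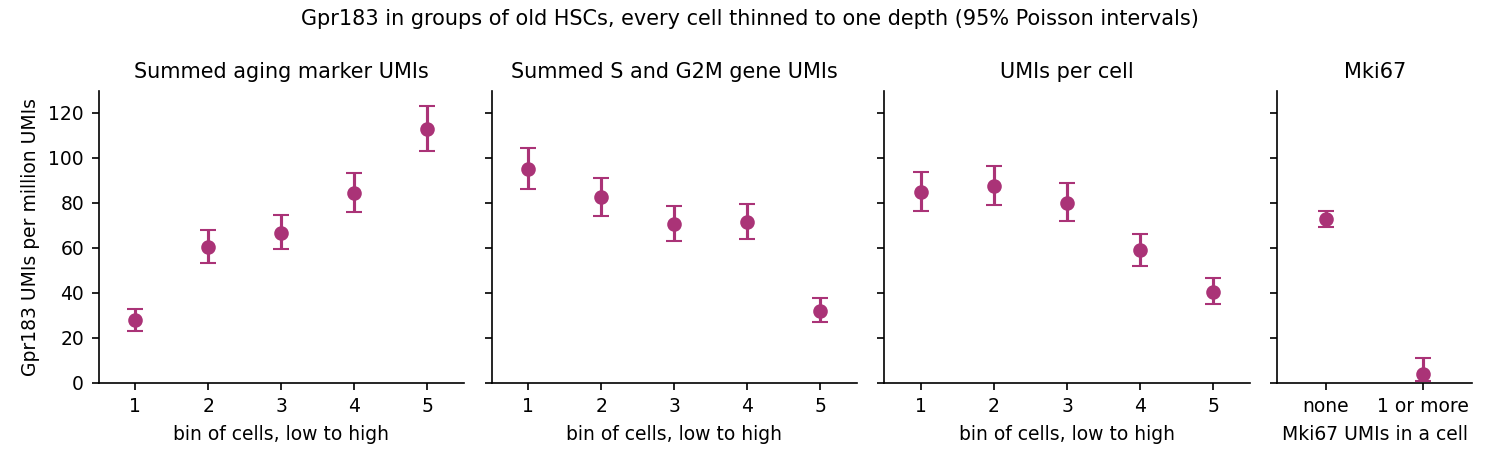
*Gpr183* level (CPM) in groups of old HSCs (2546 cells, each thinned to 8975 UMIs) with exact 95% Poisson intervals, by bins of summed aging marker UMIs, of summed S and G2M gene UMIs and of UMIs per cell, and by *Mki67*. The level is 27.8 CPM in the lowest and 113 CPM in the highest aging marker bin, 32.0 CPM in the top cell cycle bin and 3.80 CPM in *Mki67* cells.

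The 792 thinned old cells with a *Gpr183* UMI were also set against the 1754 without one, gene by gene. Of 2859 genes with at least 50 CPM in either, 9 had a log2 ratio above 0.5 and 17 below -0.5, around a median of -0.037. The leading genes were *Ramp2*, a receptor partner protein (113 against 48.5 CPM, log2 ratio 1.21), *Sbspon* (0.90), *Cldn5* (0.85), *Cyp26b1*, a retinoic acid degrading enzyme (0.78), *Net1* (0.71), *Clu* (0.64), *Ehd3* (0.60), *Tmem158* (0.57), *Hbb-bt* (0.57) and *Tox* (0.48). Of these 10, 4 are among the 13 listed aging markers, out of 2859 genes compared. Of those 4, *Ramp2*, *Sbspon* and *Ehd3* reached 50 CPM only in cells with *Gpr183* (48.5, 33.5 and 33.2 CPM without). *Cldn5* and *Net1* also passed only there, and *Mcm6*, *Pf4* and *Hist1h2ap* only in cells without *Gpr183*. The limit thus favours genes high in 1 of the groups, and the count is a description. *Ramp2* and *Ehd3* were chosen by the study in the same way as *Gpr183*. The highest absolute Pearson r of a compared gene with *Gpr183* across cells was 0.202. *Hbb-bt* had a UMI in 14.9% of cells with and 13.4% of cells without *Gpr183*. At the other end stood *Mcm6* (-0.74), *Pf4* (-0.83), *Hmgb2* (-0.85), *H2ac8* (-0.96) and *Hist1h2ap* (-1.15), which, *Pf4* aside, serve DNA replication and chromatin. *H2ac8* had a UMI in nearly the same share of cells, 35.1% with and 34.2% without *Gpr183*. *Mt1*, another aging marker, had 207 and 210 CPM and thus did not go with *Gpr183*, and *Cd74* had 242 and 265 CPM. *Klrb1c* (44.6 against 21.4 CPM), below the 50 CPM limit, was higher in cells with *Gpr183*.

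Of the old cells with *Gpr183*, 978 of 1057 also had *Procr* and 981 had *Kit*, against 88.9% and 92.6% of all old cells, and 1 had *Cd48*. *Cd3e*, *Itgax* and *Siglech*, which define T cells and dendritic cells, had no UMI in any old cell, so their absence says nothing of the *Gpr183* cells. *Cd79a*, a B cell gene, had a UMI in 6 of the *Gpr183* cells (0.399% of all old cells had one) and *C1qa* in 10 (0.725%). In young HSCs, 15 of 18 cells with *Gpr183* had *Procr* (69.9% of all young cells had it), 18 had *Kit* (94.7%) and none had *Cd48* (1.54%). The few *Gpr183* cells of the young library thus carried HSC markers, as most young cells did. *Irf8*, a factor of monocytes and dendritic cells named after its values were seen, had a UMI in 5 of them (5.62% of all young cells). These differences were not tested.

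In the day 14 progenitors, of 26 cells with *Gpr183* after CD150-low transplantation, 21 had *Cd48* (76.5% of all cells had it), 13 *Mpo*, a granule enzyme (28.0%), and 13 *Irf8*, a factor of monocytes and dendritic cells (10.1%). The genes of the sort, *Kit* and *Ly6a* (Sca-1), were in 12 and 15 of them, against 87.4% and 85.4% of all cells, and *Procr* in 3 (30.5%). Of 21 such cells after CD150-high transplantation, 19 had *Cd48* (59.3% of all cells), 12 *Mpo* (22.9%) and 10 *Irf8* (12.6%), while 14 had *Kit* (92.3%), 11 *Ly6a* (86.2%) and 7 *Procr* (35.3%). None of these differences from the whole library was tested. *Irf8* and the other genes named for day 14 cells, beyond those of the fixed gates, were chosen after their values were seen. After thinning, cells with *Procr* and no *Cd48*, closest to HSCs by these genes, had 1 *Gpr183* UMI in 149 cells after CD150-low and 0 in 231 cells after CD150-high transplantation, which at 3 counts allows up to 1.30% of cells with a UMI at this depth and up to 1.45 CPM (exact limits 1.58% and 1.78 CPM). Those with *Cd48* and no *Procr* had 1.16 CPM (0.615 to 1.98, 1254 cells) and 1.50 CPM (0.717 to 2.75, 745 cells), and with 3 or more *Mpo* UMIs 2.89 CPM (4 UMIs in 154 cells) and 3.48 CPM (3 UMIs in 96 cells). *Klf1* cells, of the red cell lineage, had 0 UMIs in 75 cells, which at 3 counts allows up to 4.0% of cells with a UMI (exact limit 4.8%), and 1 UMI in 93 cells. At this depth the shares of the *Procr* and *Klf1* gates cannot be told apart.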

How the data were processed

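The authors built full-length bulk libraries from sorted HSCs, and after trimming (Trim Galore) they mapped reads on mm10 by HISAT2 2.0.0 and counted by HTSeq 0.12.4, strand ignored. The deposited bulk values are FPKM, for which the submitters' processing notes name Cufflinks; read totals, and so depth, are unknown. Each table has 21835 rows, of which 10 that repeat a symbol were summed. Library sums lay between 549860.6 and 723258.7 FPKM, 10362 to 11215 genes had at least 1 FPKM, and the 13 mitochondrial genes are listed at 0. The deposited single-cell values are UMI counts that the authors made with Cell Ranger from 3' libraries.

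Bulk groups were compared with limma 3.58.1 (R 4.3.3, trend on mean) on log2(FPKM + 1). Genes entered a fit where any of its groups had a mean of 1 FPKM or more, with Benjamini-Hochberg adjustment over all genes tested. Calls needed an adjusted p under 0.05 and, for age and day 4 against fresh cells, a fold change above 2 or below 0.5. Single values were tested by exact permutation (scipy 1.17.1). The study's cell filters were applied, a minimum of 800 genes (fresh) or 2000 genes (day 14) and a mitochondrial share of 5% or less. No doublet caller was run, and leaving out cells above 2 times the median UMIs was an alternative. Intervals are exact, at 95%. The limma fitting was tested on simulated data.

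*Gpr183*, the gene lists, the gates and the tests were chosen with earlier results of these data known. The text names all oxysterol enzymes and aging markers, at most 4 called genes of other lists by size of change, known partners and neighbours of *Gpr183*, the 10 most and 5 least similar genes over libraries, and the 10 highest and 5 lowest ratios in old cells, with exceptions stated, and 1 called gene is not reported here. Alternatives were a pseudocount of 0.1 FPKM, no filter, median-of-ratios scaling, the replicate block, a spread shared by all 24 libraries, leaving out each library, every barcode, and thinning to 8975 UMIs per cell. Methylation and chromatin data were not analysed here.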

Additional observations from a re-analysis of the deposited data

How the results depend on the processing

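Of 140 alternative values, 98 kept direction and side of the threshold or stayed near the main value, 30 moved, 11 fell short of the threshold, 1 passed it and none reversed. The *Gpr183* slope over G1 to G4 stayed 0.35 with no filter (adjusted p = 0.102, limma), with median-of-ratios scaling (0.0512) and, chosen after seeing the data, with scaling and the replicate block together (0.0603), and was 0.32 to 0.40 with single libraries left out. With the replicate block alone its adjusted p was 0.041, with 26 genes called in place of 33. The labels give the same 3 mice in each CD150 group. Over the 18 pairs of same-numbered G1 to G4 libraries, deviations from the group means correlated between -0.566 and 0.607, and 7 pairs were over 0.1. Differently numbered G1 and G2 libraries reached -0.659 and 0.726, so these correlations do not set same-numbered pairs apart. G4 against G1 lay between 0.80 and 1.06 and passed only without G1 replicate 3. In the other groups replicate numbers are only numbers (12 pairs, -0.203 to 0.119).

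With no filter, 61 genes were called between old and young HSCs, 991 between day 4 CD150-low cells and G1, 13 over G1 to G4 and 2 between the day 4 groups. With a spread shared by all 24 libraries, 82 were called over G1 to G4 and 32 between the day 4 groups, where the block gave 3. Leaving out single libraries gave 267 to 429 calls with age (267 without young replicate 1), 877 to 2697 in day 4 CD150-low cells (877 without its replicate 2), 2373 to 2841 in CD150-high cells, 4 to 39 over G1 to G4 (4 without G1 replicate 2 or G4 replicate 1) and 0 to 9 between the day 4 groups (9 without CD150-low replicate 3). The cause was not tested. *Gpr183* on day 4, CD150-high minus CD150-low, lay between -0.49 and -0.23 with single libraries left out, and could not be fitted with the shared spread, since it did not pass the filter.

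Median-of-ratios scaling moved the G3 mean to 68.4 FPKM. In single cells, thinning moved the old level to 70.3 CPM and the shares of cells with a UMI to 31.1% (old), 0.6% (day 14 CD150-low) and 0.418% (day 14 CD150-high), and keeping every deposited barcode gave 30.8% in old HSCs and 0.311% in day 14 CD150-high cells. The unknown bulk depth leaves levels under 1 FPKM, and so the order of young and day 4 groups, unresolved.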

Other observations

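In the day 14 library after CD150-high transplantation, the few *Gpr183* UMIs left by thinning were concentrated in cells with basophil and mast cell genes. At full depth this library had 30 *Gpr183* UMIs in 21 cells, for which the list was not counted. After thinning, 53 of 1916 cells had at least 3 UMIs of the list *Mcpt8*, *Prss34*, *Cpa3*, *Ms4a2*, *Fcer1a* and *Hdc*, and 9 of the library's 11 *Gpr183* UMIs were in 6 of them, a level of 18.9 CPM (exact 95% Poisson interval 8.65 to 35.9) against 0.12 CPM (0.0145 to 0.432) in the 1863 others. In the library after CD150-low transplantation, 82 cells met the same limit and held 1 of 17 *Gpr183* UMIs, or 1.36 CPM (0.0344 to 7.57). The list was one of several looked at, each library is single, and the difference between them was not tested. Median depth was 30402 UMIs in the 53 cells and 30889 in the others.

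In that library after thinning, the 1323 cells with *Mki67* held 0 *Gpr183* UMIs, which at 3 counts allows up to 0.227% of cells with a UMI at this depth (exact limit 0.278%), while 8 of the 593 others had one (2.07 CPM, 1.03 to 3.70). The 0 holds for the thinned counts only, since at full depth 11 of the 21 cells with *Gpr183* also had *Mki67*, against 79.9% of all cells. Median depth was 35088 UMIs in the former and 23019 before thinning in the latter. After CD150-low transplantation the 1361 *Mki67* cells had 0.819 CPM (0.393 to 1.51) and the 804 others 0.97 CPM (0.39 to 2.00).

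Old cells with at least 3 UMIs of megakaryocyte genes, 303 of 2546, had 49.6 CPM of *Gpr183* (41.6 to 58.8) against 73.1 CPM (69.4 to 77.0) in the 2243 others, and the 170 with at least 3 UMIs of erythroid genes had 82.6 CPM (68.8 to 98.3) against 69.5 CPM (66.0 to 73.1). *Pf4*, a platelet gene of the former list, was lower in *Gpr183* cells, at 43.8 against 77.7 CPM.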
